A study of Mus musculus with 9 samples.

Results

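Chromatin accessibility after depletion of the histone variant H2A.Z was described gene by gene in mouse embryonic fibroblasts (MEFs) that lack the histone chaperone ANP32E. The comparison set the ATAC-seq peak list of Anp32e null MEFs given siRNAs against H2A.Z beside that of Anp32e null MEFs given a non-targeting (NT) siRNA, on chromosomes 1 to 19. Its members were the protein-coding genes of GENCODE M21 on mm10 with a peak within 1 kb of an annotated transcription start site (TSS) in either list, 14652 of 20807 genes. In ATAC-seq the Tn5 transposase inserts adapters into open DNA, and a peak is a stretch where such fragments pile up above background. The NT siRNA list came from 1 library and the H2A.Z siRNA list from 2 libraries that the authors had pooled before calling peaks. All siRNA-treated cells were primary Anp32e null MEFs below passage 8, transfected with Lipofectamine RNAiMax and either a pool of 4 siRNAs against H2A.Z or the NT pool, so the deletion of Anp32e was shared by both groups. Untransfected wild-type (WT) and Anp32e null MEFs, with 3 pooled libraries each, are given beside them at the promoters described in most detail. With 1 list per group there were no replicate values. Intervals therefore cover counting error alone, and a difference between lists compares these libraries and had no replicate check.

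H2A.Z replaces canonical H2A in nucleosomes that flank active promoters and enhancers. It is deposited by the SRCAP and p400-TIP60 remodelers and taken out by ANP32E and INO80, and the question behind the design was whether the accessibility of ANP32E-deficient cells depends on H2A.Z. Promoters of widely used genes tend to be rich in CpG and open in most cell types, whereas promoters with few CpGs and distal enhancers tend to follow the cell type and its transcription factors.

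Sequencing depth was unequal. Background over the genome came to 3.88 fragments per position for NT siRNA and to 17.8 for H2A.Z siRNA, a ratio of 4.59. The NT siRNA list held 87116 peaks and the H2A.Z siRNA list 105816. For calls of gain and for ranks, the deeper list was therefore shortened, by fold over local background, to its 87116 strongest peaks, or 82.3% of it. The smallest summit called was 11 fragments in the NT siRNA list and 32 in the H2A.Z siRNA list. As for cell identity, 14 of 16 fibroblast markers had a promoter peak in both lists, Postn and Lum being without one. Most markers of other cell types were open as well, at 12 of 15 epithelial and 10 of 13 endothelial genes in both lists and at 10 of 12 genes of neurons and glia after NT siRNA, so promoter peaks alone did not set fibroblasts apart. Myod1, Myf5, Myog and Myh3 of muscle and Krt5, Krt14 and Trp63 of epithelium had a peak in neither list. Of 10 muscle markers, 2 had a promoter peak after NT siRNA and 6 in the whole H2A.Z siRNA list, with Nkx2-5, Tnnt2, Acta1 and Myh6 added, and their part in the gains below was not tested.

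The genes for H2A.Z itself kept open promoters. H2afz (ENSMUSG00000037894.13), which encodes H2A.Z.1, had its NT siRNA peak at chr3:137863996-137864827 with 491 fragments at the summit, against 1958 in the H2A.Z siRNA list. These were 127 and 110 times the background of their lists, compared with 42.8 in WT and 93.2 in untransfected null MEFs. After centring on the median gene, explained below, the ratio was 1.08 (95% counting interval 0.975 to 1.19). A weaker H2afz peak, 605 bp downstream of another annotated start within the gene, had 174 and 931 fragments and a ratio of 1.45 (1.23 to 1.72). H2afv (ENSMUSG00000041126.16), which encodes H2A.Z.2, had 574 and 2309 fragments and a ratio of 1.09 (0.991 to 1.19). At the highest peak of either gene the interval included the median gene's value. Peak lists report no transcript or protein, and siRNAs act on transcripts, so the knockdown could not be checked here. The deleted gene Anp32e had 349 and 1522 fragments at its TSS, a ratio of 1.18 (1.05 to 1.33), which was 0.971 by the ratio of deposited fold over local background.

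Most promoters were open in both lists. A promoter peak was present at 14217 genes (68.3%) in the NT siRNA list and at 14547 (69.9%) in the whole H2A.Z siRNA list, and 14112 genes had one in both. Signal at shared promoters was compared as summit fragments over the background of each list, using the highest peak of each list. The median ratio of H2A.Z siRNA to NT siRNA was 0.807, or −0.31 on the log2 scale, and between 0.782 and 0.835 on single autosomes. Each gene's ratio was then divided by this median, so that 1 stands for the median gene, and a site with a centred ratio somewhat above 1 can still be lower over background after H2A.Z siRNA. The quartiles of the centred ratio were 0.883 and 1.13. Past 1.5-fold, 415 genes (2.94%) were higher and 523 (3.71%) lower after H2A.Z siRNA. The direction of this balance rested on the centre. Without centring 149 were higher and 2215 lower, whereas centring on the 1000 promoters of best mean rank gave 885 higher and 278 lower. By the ratio of deposited fold, centred in the same way, 138 were higher and 252 lower. Fewer cells with an open site and less opening per cell cannot be told apart in bulk libraries.

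**Figure D1:**
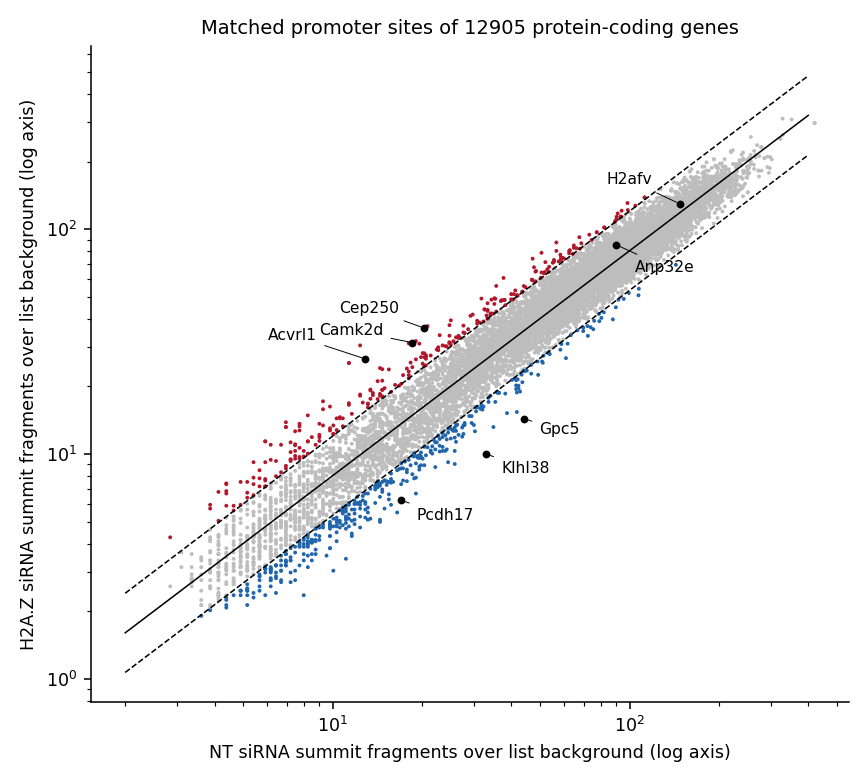
Summit fragments over list background at the matched promoter sites of 12905 genes, NT siRNA on the x axis and H2A.Z siRNA on the y axis, both log axes without units; each point is a gene, the solid line the median ratio of 0.802 and the dashed lines 1.5-fold on either side of it. Genes past 1.5-fold are red (270 higher) or blue (387 lower), and most points with over 100 times background lie between the dashed lines.

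Promoters called after H2A.Z siRNA alone were few and mostly weak. Among the 6590 genes with no NT siRNA promoter peak, 214 had one in the shortened H2A.Z siRNA list (3.25%, 95% Wilson interval 2.85 to 3.70), and a further 221 had only a weaker one that the shortening left out. For 59 of the 214, the H2A.Z siRNA peak also overlapped an NT siRNA peak whose edge stopped short of the promoter window, so these were wider peaks and not new sites. Among the gained promoters of highest fold, Cpeb4, Sdhaf1, Sbk3, Stab2, Gm30191 and Gm10181 were of this kind. The other 155 (2.35% of the 6590) overlapped no NT siRNA peak anywhere, and the genes that follow were chosen among them by fold after their values had been seen.

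C3ar1 (ENSMUSG00000040552.8), the receptor for the complement fragment C3a, had 194 fragments at a summit 2 bp downstream of its TSS, in a peak at chr6:122855821-122856449, and ranked at percentile 73.4 of its list. At the depth of the NT siRNA list this would be 42.2 fragments, where summits of 11 were still called. C3ar1 also had a peak in WT (50 fragments) and in untransfected null MEFs (38 fragments), so the NT siRNA list was the one without it. P2ry12, an ADP receptor of platelets and microglia, had 144 fragments near an internal annotated start at 59220200, the gene itself beginning at 59262871. Chit1, the chitinase of macrophages, had 163 fragments at its TSS, and neither gene had a peak in any other list. Beside them, the list of macrophage and blood markers had a promoter peak at 6 of 15 genes in the NT siRNA list and at 8 in the whole list of H2A.Z siRNA, with Spi1 and Fcer1g added at 39 fragments each, too weak for the shortened list. Its summed signal was 161 and 164 times background, a centred ratio of 1.26 beside 1.02 for fibroblast and 1.40 for muscle markers. These sums take the whole, deeper H2A.Z siRNA list and an absent peak adds nothing, so peaks called only there raise the ratios. At sites matched between the lists, explained below, the median was 1.32 over 5 macrophage and blood markers. Over 2 muscle markers it was 0.899, with neither above 1. Ptprc, Itgam, Adgre1, Tyrobp and Lyz2 of the macrophage and blood list had no peak in either list. The part of such cells in these gains was not tested.

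Stra8, which starts meiosis in response to retinoic acid, had 141 fragments and Zglp1, a factor of oocyte fate, 122, both without a peak in any other list. The Zglp1 site lay near an internal annotated start at 21062795, the gene itself beginning at 21067093. Sag, the arrestin of rods, had 148 fragments here, 22 in WT and 16 in untransfected null, near an internal start at 87826488 in a gene beginning at 87803680. Ddi1, an aspartic protease gene, had 173 fragments here and also 60 in WT and 38 in untransfected null. The highest fold was at the predicted gene Gm17482, with 224 fragments and percentile 81.0, and with no peak in the other 3 lists. Most new sites were weak. Their summits ran from 51 to 255 fragments with a median of 70, or 15.2 at NT siRNA depth, and their median percentile was 14.5. The weakest gained peak would be 11.1 fragments at NT siRNA depth, at the edge of what that list could call. Of the 155, 58 (37.4%) had a promoter peak in WT and 52 (33.5%) in untransfected null MEFs, compared with 97.0% and 97.3% of the genes open in both siRNA lists and 6.45% and 4.42% of those open in neither.

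Lost promoters were also few and mostly weak. Of the 14217 genes with an NT siRNA promoter peak, 105 had no peak of the whole H2A.Z siRNA list there (0.739%, 0.611 to 0.893), and for 100 of them (0.703%) the NT siRNA peak overlapped no H2A.Z siRNA peak at all. Another 223 kept a peak that fell outside the shortened list. A loss needed absence from the whole, deeper H2A.Z siRNA list and a gain a place in the shortened one, so the counts of gains and losses are not on the same footing. The lost promoters numbered 58 at a −log10 q of 5 or more. With the summit required inside the promoter, 207 were lost and 181 gained. Vip (ENSMUSG00000019772.5), the vasoactive intestinal peptide, had 42 fragments after NT siRNA in a peak at chr10:5639161-5639400, 21 in untransfected null, and no peak in WT or after H2A.Z siRNA. Cav3, the caveolin of muscle, had 25 fragments after NT siRNA against 127 in WT and 31 in untransfected null. Syt9, a synaptotagmin, had 23 after NT siRNA against 69 in WT and 47 in untransfected null, and Prlr, the prolactin receptor, had 22, with 36 in untransfected null and none in WT. The Prlr site lay near an internal annotated start at 10314102, the gene itself beginning at 10177238. Mak, a kinase of male germ cells, had 27 and no peak in WT or untransfected null, and Lrrc34 had 28, against 23 in WT and 20 in untransfected null. For Cav3, Syt9 and Lrrc34 the H2A.Z siRNA list was thus the only one without the peak. The 100 NT siRNA summits ran from 12 to 96 fragments with a median of 17, and 53 of the 100 genes had a peak in WT and 53 in untransfected null. Among the 8 lost promoters of highest fold, Aoc3, Nat8f6 and Cma1 had an H2A.Z siRNA peak just outside the window.

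The most extreme ratios at shared promoters compared different starts of a gene. By the highest peak of each list, the largest were at Hdgfl2 (15.1), Arhgap12, Paics, Etfb, Add3, Phlpp1, Gm20696, Bid, Myo1h and Zbtb20, and the smallest at Ttc41 (0.0611), Lrp8, Notch1, Plekhh2, Aloxe3, Scfd2, Atad1, Shld2, Prss36 and Aknad1. In each of these 20 the highest peaks of the lists were not the same peak. Notch1, a receptor of cell-to-cell signalling, showed a ratio of 0.0968 from 329 fragments at one start and 118 at another, but at the site present in both lists it had 329 and 1168 fragments and a ratio of 0.964 (0.852 to 1.09). Hdgfl2 likewise had 1.23 at its matched site. Among all shared promoters the highest peaks did not overlap at 454, among which were 113 of the 415 higher and 111 of the 523 lower genes.

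Peaks were therefore also matched one to one, with summits within 150 bp, a choice made after the values had been seen. This gave 12905 genes, of which 270 (2.09%) were at least 1.5-fold higher after H2A.Z siRNA and 387 (3%) at least 1.5-fold lower. The counting interval excluded 1 for 259 of the higher and 335 of the lower genes. The named genes below are the largest and smallest ratios among the 11649 genes with 50 or more fragments at both summits.

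The largest of these ratios was at Acvrl1 (ENSMUSG00000000530.16), which encodes ALK1, a TGF-beta family receptor best known from endothelium. Its peak at chr15:101132944-101133601 had 50 fragments in the NT siRNA list and 472 in the H2A.Z siRNA list, and its summit lay at −105 bp from an internal annotated start at position 101133415, the gene itself beginning at 101128522. Over background the site stood at 5.99 in WT, 13.1 in untransfected null, 12.9 with the NT siRNA and 26.5 with the H2A.Z siRNAs, the highest of the 4 values. The centred ratio was 2.56 (1.91 to 3.50), and the percentile was 50.4 against 72.2. The ratio of deposited fold was smaller, at 1.58, and by it Tmem200a (1.62), S100a2 and Gm3776 (both 1.61) stood slightly above Acvrl1. Most promoters stood lower over background in the untransfected lists, the median ratio of NT siRNA being 2.14 to untransfected null and 3.37 to WT, so these levels are set side by side only.

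The other large ratios were at genes of varied function. Camk2d, a calcium and calmodulin-dependent kinase, had 72 and 558 fragments and a ratio of 2.10 (1.64 to 2.73). Kcnn4, a calcium-activated potassium channel, had 70 and 554 fragments and a ratio of 2.15 (1.67 to 2.80). S100a2, a calcium-binding protein, had 146 and 1082 fragments and a ratio of 2.01 (1.69 to 2.41), although its fold over local background was among the lowest of the list, at percentiles 0.966 and 11.3. Cep250, a linker of the centrosome pair, reached 2.22 (1.76 to 2.85), Misp, which positions the mitotic spindle, 2.03 (1.53 to 2.72) and Uba3, the catalytic subunit of the NEDD8-activating enzyme, 1.96 (1.64 to 2.36). The Cep250 site lay at an internal annotated start, 155979558, the gene itself beginning at 155956458. By the highest peak of each list, at different starts, Cep250 was lower, at 0.620 (0.538 to 0.715). The sites of Camk2d and Misp were also at internal starts. Lnx1, a ubiquitin ligase, Cxcl17, a mucosal chemokine, and Tmem200a reached 1.97, 1.96 and 2.08. Ly6g (2.22) and Gm3776 (2.09) also ranked here, but both have near-identical neighbours in their gene families and reads could have been split among these. By the ratio of deposited fold only Acvrl1, Tmem200a, S100a2 and Gm3776 of these 12 genes stayed past 1.5-fold. The other 8 lay between 1.28 (Camk2d) and 1.43 (Cxcl17), with Cep250 at 1.29 and Kcnn4 at 1.37.

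The smallest matched ratio was at Klhl38 (ENSMUSG00000022357.2), a kelch-like gene. Its peak at chr15:58323934-58324567, with a summit at −15 bp from the TSS, had 127 fragments in the NT siRNA list and 179 in the other. Over background it stood at 5.31 in WT, 9.19 in untransfected null, 32.7 with the NT siRNA and 10.0 with the H2A.Z siRNAs, so the NT siRNA value was the highest of the 4. By median ratios promoters in general also stood highest with the NT siRNA. They were 2.14 to untransfected null and 3.37 to WT, and 0.805 for H2A.Z siRNA over NT siRNA, so this order is not particular to single genes. At Klhl38 the centred ratio was 0.383 (0.303 to 0.484) and the percentile was 74.0 against 19.5. Gpc5, a glypican of the cell surface, also had its highest value with the NT siRNA. It stood at 33.5 in WT, 35.2 in untransfected null and 44.1 with the NT siRNA, and the H2A.Z siRNA list was lowest at 14.4 (ratio 0.407, 0.334 to 0.496). Pcdh17, a protocadherin of neurons, likewise stood lowest in the H2A.Z siRNA list, with 18.3 in WT, 16.4 in untransfected null, 17.0 with the NT siRNA and 6.23 with the H2A.Z siRNAs (ratio 0.457, 0.334 to 0.629).

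The remaining small ratios were at genes of varied function too. Lrrtm3, a synaptic adhesion protein, had 162 and 274 fragments and a ratio of 0.459 (0.377 to 0.561). Znrf3, the ubiquitin ligase that removes Frizzled receptors, had 135 and 235 fragments and a ratio of 0.473 (0.381 to 0.589). Over background Znrf3 stood at 7.35 in WT, 6.65 in untransfected null, 34.8 with the NT siRNA and 13.2 with the H2A.Z siRNAs, so the NT siRNA value was the highest, as at Klhl38 and for promoters in general. The Znrf3 site lay near an internal annotated start at 5381740, the gene itself beginning at 5444847. Fibin, named for fin bud initiation, had 100 and 161 fragments (0.437) and Lix1, a gene of limb expression, 95 and 164 (0.469). Slc35f4, a solute carrier, and Cib4, a calcium and integrin binding protein, had 0.437 and 0.416. By the ratio of deposited fold, 8 of the 12 smallest stayed past 1.5-fold, from Klhl38 at 0.378 to Cib4 at 0.592, whereas Gpc5 had 0.733, Znrf3 0.792, Lix1 0.689 and 1500015O10Rik 0.722.

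**Figure D2:**
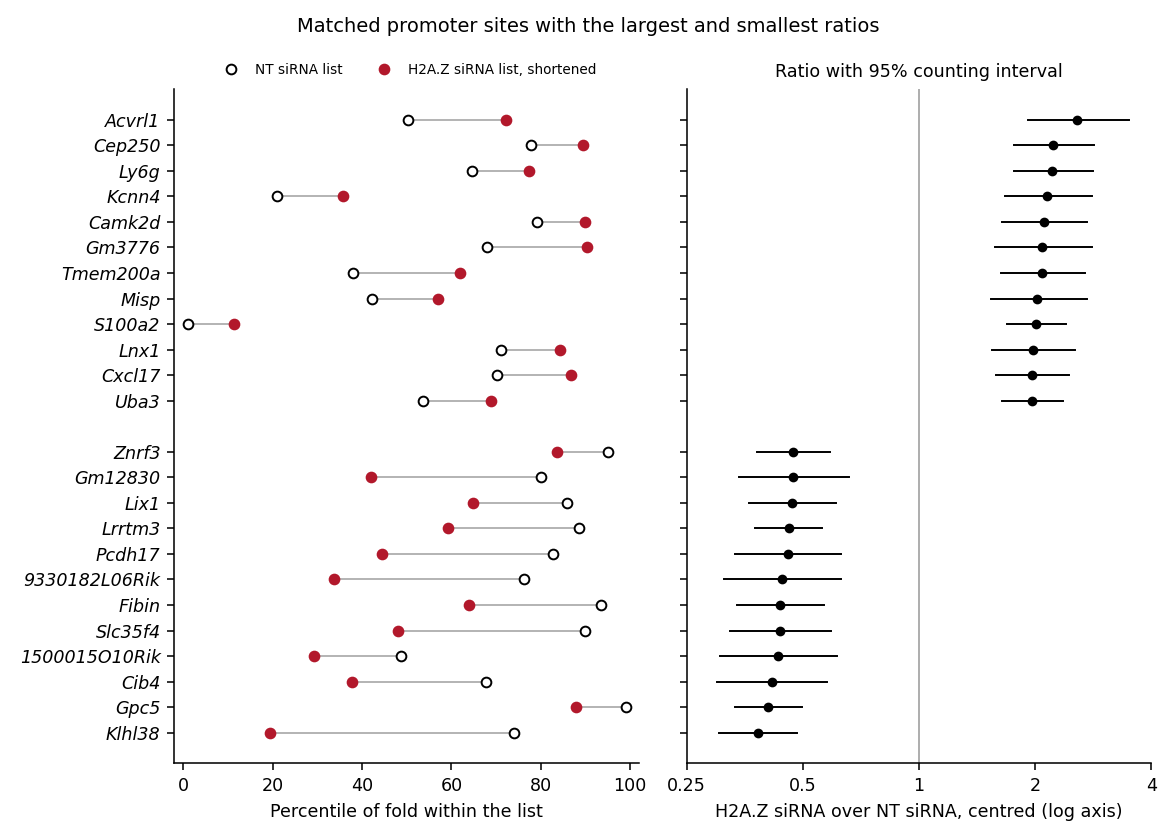
Left, percentile of fold within the NT siRNA list (open circles) and within the shortened H2A.Z siRNA list (filled circles) for the 12 largest and 12 smallest matched ratios among genes with at least 50 fragments at both summits. Right, their centred ratio without units on a log axis with its 95% counting interval. Acvrl1 stands highest at 2.56 and Klhl38 lowest at 0.383, and the filled circle lies right of the open one for each gene of the upper group and left of it for each of the lower group.

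Ranks within the lists moved little for most genes. Among the 13889 genes with a promoter peak in both the NT siRNA list and the shortened H2A.Z siRNA list, the median rank change was −0.929 percentile points, with quartiles of −4.94 and 2.33, and every single autosome had a median below 0 (−1.88 to −0.171). The percentile was 10 or more points higher at 585 genes (4.21%) and 10 or more lower at 1420 (10.2%). The sign of the median depended on how depth was allowed for, being 2.10 with the whole H2A.Z siRNA list and 0.215 when peaks were kept by their chance of being called at NT siRNA depth. Crabp1, which binds retinoic acid and is one of the study's examples, moved by −13.4 points while its summit ratio was 0.934 (0.703 to 1.26), from 63 fragments to 218. Cdkn1c, a CDK inhibitor and the other example, moved by −1.37 points at a ratio of 1.13 (0.884 to 1.46), from 80 fragments to 335.

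Gene groups were described at matched sites, beside 2.09% of all genes higher and 3% lower past 1.5-fold and a median ratio of 1. Groups used by every cell lay close to that median or slightly above it. Subunits of the SWI/SNF and ISWI remodelers had a median of 1.13, with 17 of 19 above 1 and none past 1.5-fold in either direction. The subunits of SRCAP, p400-TIP60 and INO80, which deposit or remove H2A.Z, had a median of 1.09 with 19 of 27 above 1, from Srcap itself at 1.38 (1.22 to 1.56) downward. Neither group gained or lost a promoter. Cytosolic ribosomal protein genes had a median of 1.05 over 70 genes, with Rpl31 of the large subunit higher at 1.70 (1.49 to 1.94) and none lower. In DNA replication and the cell cycle, with a median of 1.04 over 52 genes, the spindle checkpoint kinase Bub1 was higher at 1.84 (1.47 to 2.32), and Rfc3, which loads the replication clamp, was the lowest at 0.704 (0.624 to 0.797). For p53 and its targets the median was 1.04, and no member of 22 passed 1.5-fold.

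Few genes of the fibroblast and its signalling passed 1.5-fold. Among collagen and matrix genes, with a median of 0.998 over 30, the proteoglycan decorin (Dcn) was higher at 1.61 (1.10 to 2.44), from 31 fragments to 184, while Thbs2, a matrix protein that restrains angiogenesis, had 0.688 (0.602 to 0.789) and the fibrillin Fbn2 0.699 (0.587 to 0.835). Sparc, a collagen-binding protein, had 1.48 (1.26 to 1.74). The beta actin gene Actb was the lowest of 24 contractile and SRF-linked genes, with 746 and 1888 fragments and a ratio of 0.687 (0.631 to 0.749). In the TGF-beta list, which does not include the receptor gene Acvrl1 described above, no member of 25 passed 1.5-fold. Smad3, the signal transducer, was highest at 1.25 (1.12 to 1.40) and Ltbp2, which is related to the proteins that hold latent TGF-beta, lowest at 0.740 (0.615 to 0.893). Of the Hippo pathway 17 of 22 were above 1, with Ankrd1, a widely used YAP target, at 1.38 (1.13 to 1.69). Transcription factors of mesenchyme had a median of 0.942, with Msx2 lower at 0.663, and regulators of fat cells had a median of 0.878, with Zfp423, a factor of preadipocytes, lower at 0.540 (0.420 to 0.70).

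In the Hox clusters, which set position along the body axis, Hoxb5, Hoxb7 and Hoxc8 gained promoter sites of 65, 70 and 77 fragments, at percentiles 14.1, 13.3 and 1.74, so all were weak. Hoxa11 and Hoxd8 were higher at 1.68 (1.44 to 1.97) and 1.58 (1.33 to 1.88), and Hoxb6 and Hoxa3 were lower at 0.609 (0.399 to 0.948) and 0.658 (0.411 to 1.08), 2 each way of 28 matched Hox genes. These 3 gains among 9 Hox genes without an NT siRNA promoter peak stand beside 3.25% of all such genes. Pax6, a regulator of eye and brain, was lower at 0.578 (0.479 to 0.70), from 164 fragments to 349, and the neuronal tubulin Tubb3 had 0.669 (0.572 to 0.785). Neurod2 and Olig2 counted as gained only because a wider peak reached their promoters.

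Clustered protocadherins, cell adhesion genes that neurons choose at random, had the lowest median of any list shown in the plot of gene lists, 0.828 over 15 matched genes, with 3 of 15 above 1. Pcdhga5 had 38 and 86 fragments and a ratio of 0.615 (0.415 to 0.926). Pcdhb21 and Pcdhb19 lost weak peaks of 16 and 15 fragments, while Pcdhgb2 gained one of 81. Genes of this family are close copies, and reads could have been split among them. Imprinted genes, which are expressed from one parental copy, had a matched median of 0.856 over 23, but 1.00 over 27 shared promoters by the highest peak of each list. Sgce and Ppp1r9a, neighbours in one imprinted cluster, were both lower, at 0.664 (0.564 to 0.784) and 0.665 (0.572 to 0.774), while Peg10, which lies between them, had 1.25 (0.942 to 1.68). Elsewhere Slc22a18 was higher at 1.95 (1.31 to 3.01), and 1 matched imprinted gene of 23 was higher and 3 lower past 1.5-fold. Nnat gained a peak of 225 fragments and Kcnq1 lost one of 14.

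Of 25 matched interferon response genes 1 was higher and 1 lower. The antiviral gene Mx1 had 1.52 (1.04 to 2.31) and Ifit1 had 0.637 (0.465 to 0.882), from 31 and 58 NT siRNA fragments. Oasl1 lost a promoter peak of 28 fragments and the cytokine gene Tnf one of 16. No member of the NF-kB and cytokine list passed 1.5-fold at a matched site, with Csf1, the growth factor of macrophages, highest at 1.42 (1.27 to 1.59) and Ccl7, a monocyte chemokine, lowest at 0.694 (0.572 to 0.845). Of the olfactory receptor genes, 1128 in all, 10 had a promoter peak in the NT siRNA list and 16 in the whole H2A.Z siRNA list, with Olfr90 the strongest gain at 166 fragments. All 4 gained olfactory receptors were new sites, out of 1118 without an NT siRNA peak, beside new sites at 2.35% of all genes without one.

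**Figure D3:**
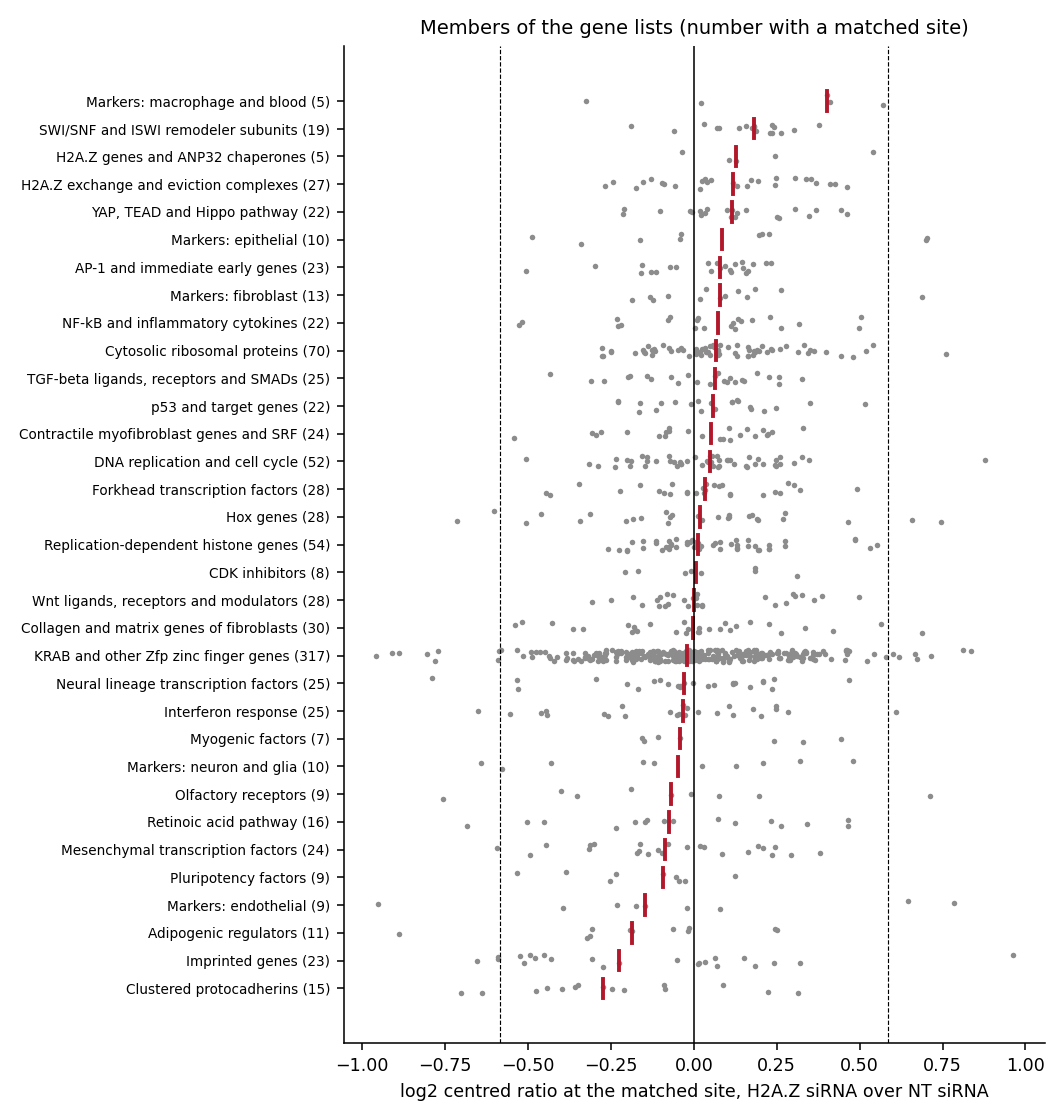
Each grey point is the log2 centred ratio (H2A.Z siRNA over NT siRNA) of 1 gene at its matched promoter site, one row per gene list with its number of matched genes, red bars are list medians and dashed lines mark 1.5-fold. Clustered protocadherins lie lowest with a median of −0.27 and markers of macrophage and blood highest with 0.40, the latter from 5 genes.

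The share of differing sites varied with their place in the promoter. Of the matched sites with a summit over 500 bp upstream of the nearest TSS, 6.83% were higher and 3.61% lower, compared with 1.21% higher and 2.68% lower within 100 bp upstream. Lower sites were most frequent 250 to 500 bp downstream of the TSS, at 7.32%, where 2.39% were higher. Signal differed along the promoter too, the median strength being 69.1 times background within 100 bp upstream and 33.6 at 250 to 500 bp downstream, and its part in these shares was not tested.

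**Figure D4:**
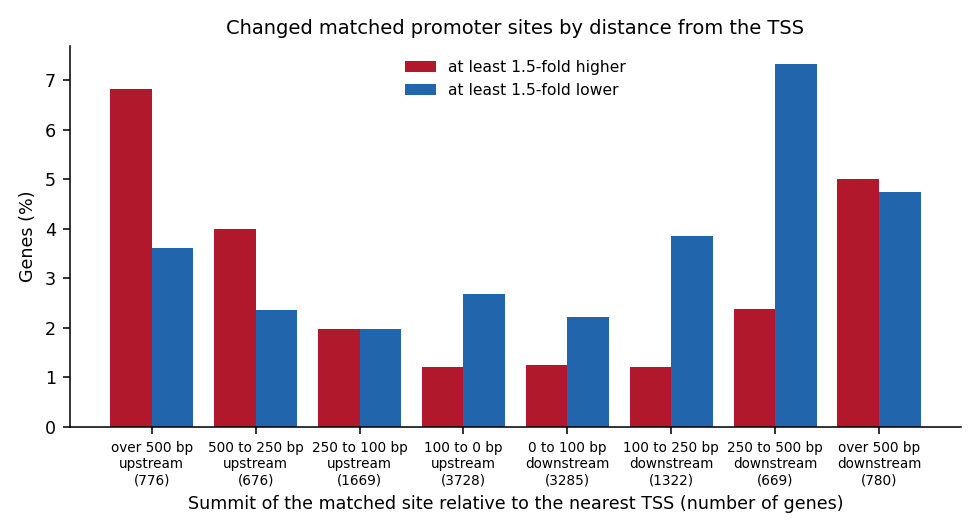
Percent of genes whose matched promoter site was at least 1.5-fold higher (red) or lower (blue) after H2A.Z siRNA, by distance of the summit from the nearest TSS, with the number of genes in each class under the bars. The red bar is tallest over 500 bp upstream (6.83%) and the blue bar 250 to 500 bp downstream (7.32%).

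The share also varied with CpG content. When the promoter sites were divided into 4 equal classes by CpGs within 100 bp of the summit, the class with 6 or fewer had 10.3% higher and 5.78% lower past 1.5-fold, whereas in the class with the most, 0.477% were higher and 2.44% lower. The median strength of these classes was 15.1 and 63.0 times background. Uncentred, the 15093 matched sites at promoters had a median ratio of 0.805 and the 55436 sites over 1 kb from every TSS 0.836, with ranges over autosomes of 0.786 to 0.832 and 0.817 to 0.852. The promoter median was the lower in 10 of 10 classes of equal strength. The 12959 gained peaks and 4617 lost peaks lay mostly away from every TSS, at 91.2% and 89.5%. So did the matched sites, with 55436 over 1 kb from every TSS against 15093 at promoters, so a distal place is not particular to gained or lost peaks.

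AP-1 sequences were more frequent at sites that stood higher after H2A.Z siRNA. AP-1 is a dimer of FOS and JUN family proteins that binds enhancers in fibroblasts and many other cells, and its consensus TGANTCA, the same on both strands, was searched within 100 bp of each summit, taken from the NT siRNA list for matched and lost sites and from the H2A.Z siRNA list for gained ones. At distal sites divided into 5 equal classes from lowest to highest ratio, the share with a match was 19.4%, 28.6%, 38.1%, 46.1% and 56.2%, against 37.7% of all distal sites. At promoter sites it was 6.03%, 6.39%, 7.82%, 9.94% and 21.2%, against 10.3% of all. Gained distal peaks held a match in 44.9% of cases and lost distal peaks in 13.9%. Several promoters that hold a match are shown to illustrate this in 121 bp windows around the summit, 5′ to 3′ on the plus strand of GRCm38, with every AP-1 match in capitals. None of the windows overlaps an annotated exon. The first pair are higher sites, of Tmem200a (summit at −835 bp from its TSS, chr10:26079827-26079947) and Cxcl17 (summit 1617 bp downstream in a peak that reaches the promoter window, chr7:25411209-25411329), and the next pair are new sites, of Zglp1 (chr9:21063114-21063234) and the predicted gene Gm17581 (112 fragments after H2A.Z siRNA, chr2:155737114-155737234).
Tmem200a: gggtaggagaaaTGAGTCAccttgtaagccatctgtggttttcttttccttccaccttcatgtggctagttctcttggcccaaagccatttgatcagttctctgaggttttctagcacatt
Cxcl17: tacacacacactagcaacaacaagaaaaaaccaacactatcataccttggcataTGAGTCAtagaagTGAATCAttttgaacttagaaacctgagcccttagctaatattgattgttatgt
Zglp1: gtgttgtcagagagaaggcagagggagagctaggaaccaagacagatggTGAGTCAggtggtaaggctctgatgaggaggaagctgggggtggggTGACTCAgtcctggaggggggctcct
Gm17581: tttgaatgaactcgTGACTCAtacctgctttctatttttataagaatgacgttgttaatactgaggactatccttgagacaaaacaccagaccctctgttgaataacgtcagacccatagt

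Some higher sites held no match and some lost sites held one. The site of largest ratio among those with 50 or more fragments, at Acvrl1 (chr15:101133250-101133370), held none of the shorter motifs in the window printed. The longer ones, NRF1, CTCF, ISRE, ZBTB33, SRF CArG and NF-kB, were not searched in that window. The lost site of Prlr held an AP-1 match. Of the lower sites, Pcdh17 (chr14:84443354-84443474) shows a GC-rich sequence with 18 CpGs within 100 bp of the summit, while Slc35f4 (chr14:49525277-49525397) and Znrf3 (chr11:5381424-5381544) have 9 and 4. These windows are printed in the same manner, and none has an AP-1 match.
Acvrl1: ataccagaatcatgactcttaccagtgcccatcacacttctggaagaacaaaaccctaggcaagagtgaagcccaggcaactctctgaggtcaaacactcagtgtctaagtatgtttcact
Pcdh17: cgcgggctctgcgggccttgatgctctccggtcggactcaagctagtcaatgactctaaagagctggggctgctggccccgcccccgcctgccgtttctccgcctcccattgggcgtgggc
Slc35f4: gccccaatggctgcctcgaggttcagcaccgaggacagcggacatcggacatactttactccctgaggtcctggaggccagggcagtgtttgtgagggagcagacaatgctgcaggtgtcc
Znrf3: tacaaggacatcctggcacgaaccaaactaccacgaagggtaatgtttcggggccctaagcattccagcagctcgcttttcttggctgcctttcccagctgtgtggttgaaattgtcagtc

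The difference was also seen as a shift of the whole class. Distal sites with an AP-1 match had a median centred ratio of 1.11 and those without 0.937, a difference of 0.24 on the log2 scale that had the same sign on 19 of 19 autosomes, in 10 of 10 classes of equal strength and in 10 of 10 classes of equal GC content. At promoter sites the medians were 1.12 and 0.99, a log2 difference of 0.17, again with one sign on 19 of 19 autosomes. By the ratio of deposited fold, which uses the local background, the differences were 0.16 at distal and 0.07 at promoter sites. CTCF, the insulator protein, went the other way at distal sites, 8.62% of which held its motif, with 0.920 where it matched and 1.01 where it did not, and their median was the lower on every autosome. Past 1.5-fold, though, distal sites with a CTCF match were lower in 7.26% of cases against 9.76% without one, and higher in 1.97% against 10.2%. The motif stood in 9.16%, 13.3%, 10.5%, 7.39% and 2.74% of the 5 classes from lowest to highest ratio, which is no steady slope. The TEAD sequence GGAATG and the RUNX sequence TGTGGT, found at 22.8% and 22.9% of distal sites, gave log2 differences within 0.01 of 0 there. The sequences CCAAT of NF-Y and GGGCGG of SP1, found at 26.0% and 42.7% of promoter sites, gave −0.01 each at promoters. A match is a description of the sequence and does not show that a protein was bound.

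The same measure at distal sites for the other pairs of lists, which share libraries with this comparison, is given beside it. From the lowest to the highest of the 5 classes of distal sites, the AP-1 share went from 34.1% to 44.0% for H2A.Z siRNA over untransfected null, from 44.0% down to 33.6% for NT siRNA over untransfected null, and from 34.4% to 46.2% for untransfected null over WT. With H2A.Z siRNA over WT it went from 32.5% to 46.6%, and for NT siRNA over WT from 38.5% to 37.5%. At promoter sites the share was 10.1% in the lowest and 9.59% in the highest class for H2A.Z siRNA over untransfected null, 10.2% and 10.6% for H2A.Z siRNA over WT, and 12.5% and 7.51% for NT siRNA over untransfected null. It was 11.2% and 12.4% for untransfected null over WT and 11.6% and 7.79% for NT siRNA over WT, beside 6.03% and 21.2% for H2A.Z siRNA over NT siRNA. The NT siRNA list, the only one from a single library, was the denominator of that last pair alone. Whether its own state or the knockdown carries the slope cannot be told apart.

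**Figure D5:**
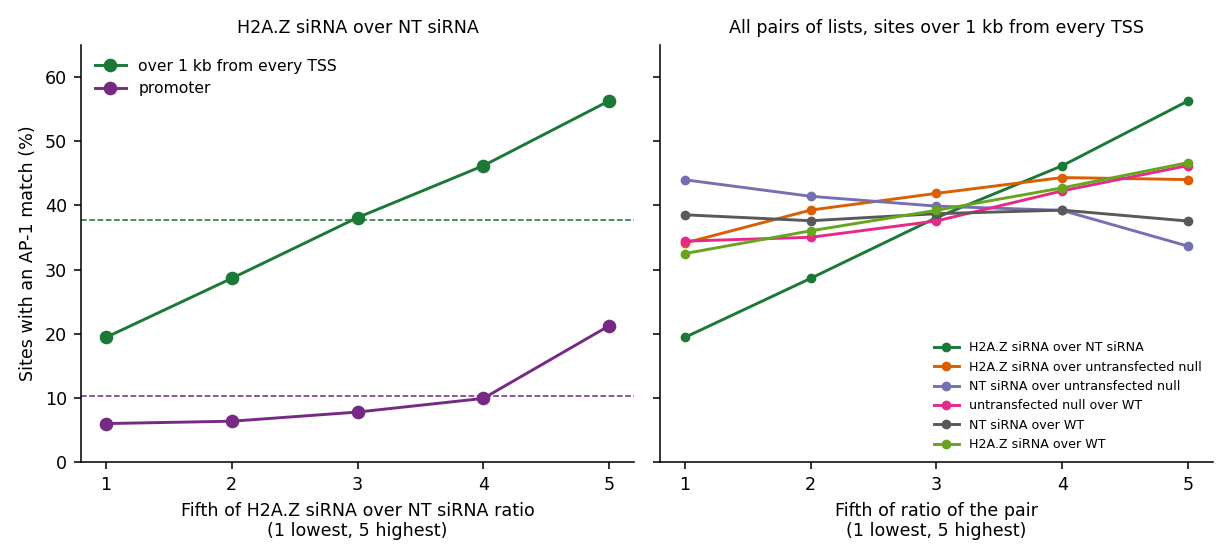
Percent of sites with an AP-1 match, in 5 equal classes of the signal ratio from lowest (1) to highest (5). Left, H2A.Z siRNA over NT siRNA at distal and promoter sites, with dashed lines at the shares of all such sites (37.7% and 10.3%); right, distal sites for all 6 pairs of lists, where H2A.Z siRNA over NT siRNA runs from 19.4% to 56.2% and NT siRNA over untransfected null from 44.0% to 33.6%.

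Gained and lost peaks were also counted over whole gene loci. Counting peaks from 1 kb upstream of the first TSS to the last base, 456 gene loci (2.19%) had at least 3 more gained than lost peaks and 22 (0.106%) at least 3 more lost than gained. Gains were taken from the shortened list and losses from the whole one, and the counts were 1696 and 8 without shortening and 340 and 135 when peaks had to overlap reciprocally by 50%. Of these, 423 and 22 belonged to the longest of 5 equal classes of gene span, and a net difference of 3 peaks needs a locus with several, so these counts do not compare long with short genes. After Gm20388, a predicted read-through gene annotated over 4435 kb, the largest net gains were at Fgfr2, a fibroblast growth factor receptor gene, with 35 gained and 14 lost. Its annotated span was 2961 kb, so these counts are for the span and not for the receptor's own exons and introns alone. Next came the synaptic scaffold gene Dlg2 (13 and 3), Lpp (14 and 6), Pakap (11 and 3) and Ltbp1 (10 and 2). Total peaks in the NT siRNA and shortened H2A.Z siRNA lists were 472 and 434 in Gm20388, 160 and 168 in Fgfr2 and 65 and 65 in Lpp. At equal list length Gm20388 thus held fewer peaks and Lpp as many. The totals were 36 and 45 in Dlg2, 36 and 42 in Pakap and 45 and 50 in Ltbp1. Lpp encodes a protein of focal adhesions and Ltbp1 holds latent TGF-beta in the matrix. The largest net losses were at Magi1, a scaffold of cell junctions, with 4 gained and 9 lost, the transcription factor genes Mecom (5 and 9) and Nfia (2 and 6), the phosphatase gene Ptprg (2 and 6), the kinase gene Dyrk1a (1 and 5) and the mTOR inhibitor gene Deptor (0 and 4). Promoters of 424 of the 456 gaining loci were open in both lists. The gained peak of highest fold within Ltbp1 had 221 fragments and the lost peak of highest fold within Dyrk1a 37.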

How the data were processed

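ATAC-seq reads had been mapped to mm10 (Bowtie2), cleared of duplicates (Picard) and merged by group, and MACS2 peak lists were deposited. In the deposited lists the fold is a ratio, (pileup + 1) over (local background + 1), and p and q values were deposited as −log10. From fold and −log10 p the pileup was solved under a Poisson model, within 0.05 of a whole number for 100% of peaks, which was also checked on simulated data. Summit fragments were divided by genome-wide background and centred on the median gene. Ratios carry exact conditional (Clopper-Pearson) 95% intervals, and shares Wilson intervals where given. No test was made, since each group is 1 list. Genes and lists were chosen with earlier results of these data known. Named genes were Anp32e, H2afz, H2afv, Crabp1 and Cdkn1c, the 8 gained and 8 lost promoters of highest fold, the 10 largest and smallest ratios with at least 50 fragments, 6 loci each way, and up to 2 members each way per list. New sites, gone sites and the 12 largest and 12 smallest matched ratios were added to these after their values were seen. A gene that this rule names is not reported here. Motifs searched on both strands, beside those spelled in the text, were CRE (TGACGTCA), ETS (CCGGAAG), YY1 (AAGATGGC), E-box (CACGTG), CEBP (TTGCGCAA) and, by longer consensus sequences, NRF1, CTCF, ISRE, ZBTB33, SRF CArG and NF-kB. Matches of different motifs may overlap. Sequences came from RefSeq's GRCm38.p6. Python 3.11.15, NumPy 2.4.6, SciPy 1.17.1, pandas 2.3.3, pysam 0.24.0 and matplotlib 3.10.9 were used.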

Additional observations from a re-analysis of the deposited data

How the results depend on the processing

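No paired analysis was possible because only pooled lists were compared, 1 per group, and leaving out single replicates was not run for the same reason. Gained promoters numbered 435 with the whole H2A.Z siRNA list, against 214. Loci with net gains and losses numbered 1696 and 8 with the whole list, and 724 and 13 when peaks were kept by their chance of being called at NT siRNA depth. The median rank change turned to 2.10 and 0.215 under these settings. At a −log10 q of 5 or more, 58 promoters were lost and 9 loci had net losses. With the summit required inside the promoter 207 were lost, and under a reciprocal overlap of 50% 135 loci had net losses. Higher and lower promoters numbered 149 and 2215 without centring, 885 and 278 centred on the 1000 promoters of best mean rank, and 138 and 252 by the ratio of fold. With peaks matched within 150 bp, added after seeing the data, 270 were higher. By the ratio of fold, also added, the AP-1 difference was 0.071 at promoter and 0.16 at distal sites, and the promoter minus distal difference was −0.025 on the log2 scale, against −0.054. The other 39 of 60 values stayed within 1.5 times the count, or within 1 SD over autosomes. Of 87 alternative values for single genes 28 moved beyond their counting interval, 19 of them by the ratio of fold, and some crossed 1. Without centring Anp32e had 0.95, H2afv 0.876 and Cdkn1c 0.912, and by the ratio of fold Anp32e had 0.971. The NT siRNA depth limits gains of weak sites, and no result had a replicate check.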
